A study of Mus musculus with 10 samples.

Results

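Gland luminal cells, the secretory cells that line the inside of the sweat gland coil, were compared with palmoplantar epidermis, the thick skin of the sole, on 2 arrays each of the 10 in the series. Both populations were purified by fluorescence-activated cell sorting, and the mice were wild-type females on a CD1 background whose paw pads were taken. Their 4 arrays were chosen by label alone, the luminal arrays as sweat gland luminal and the others as palmoplantar epidermis. The other 6 arrays hold gland myoepithelial, duct basal and duct suprabasal cells, 2 arrays each, and entered the fit to estimate the spread between arrays. The labels name biological replicates, with neither the sort markers, nor the number or age of the animals behind an array.

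Sweat glands and epidermis both derive from embryonic skin epithelium. Luminal cells of the gland secrete a salt-rich fluid: chloride enters through a sodium, potassium and chloride cotransporter driven by the sodium pump, calcium-regulated channels release ions across the apical membrane, and water follows through aquaporin 5. Epidermal keratinocytes instead stratify: basal cells divide, and suprabasal cells build keratin filaments, a cross-linked cornified envelope and a lipid barrier before they are shed.

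Values are array signals, on a linear scale, of the probe set that stands for a gene. Differences are luminal minus epidermis on the scale of log2(signal + 12), with the standard error (SE) of the fit, so that a log2 difference of 1 is 2-fold on that scale. A gene passed the test at an adjusted p under 0.05 in limma, with the adjustment of Benjamini and Hochberg over all 9310 genes tested. A p-value reflects only how far arrays of the same population spread, estimated over all 10 arrays with 2 a population. The labels do not say whether the arrays of a population came from separate animals. A probe set's level is compared between arrays and not with the level of another probe set. Added to a dim signal, the constant of 12 holds the fold down, so a difference from a population at a few units has no exact size. Of 66 named genes with several probe sets, 41 moved by over 1.5 times with the mean of those sets in place of the brightest, and 1, Notch1, lost its call.

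The median over all probe sets stood at 94.4 and 92.7 on the luminal arrays, against 65.7 and 67.3 on the epidermis arrays and 92.9 to 120 on the other 6. Across genes, which are not independent replicates, the correlation was 0.974 between the luminal arrays and 0.981 between the epidermis arrays. Of the genes tested, 603 differed by more than 2-fold between the luminal arrays and 505 between the epidermis arrays.

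The 3 marker genes followed the labels. Aqp5, the aquaporin of secretory glands, had signals of 16771 and 24287 in luminal cells, against 554 and 782 in epidermis. Its log2 difference was 4.91 (SE 0.60, adjusted p = 0.000189, limma), and the 6 other arrays lay between 786 and 7265. Krt8, a keratin of simple epithelia, had 15463 and 19734 in luminal cells and 17.8 and 3.5 in epidermis, a log2 difference of 9.67 (SE 0.47, adjusted p = 1.67e-06, limma). Krt10, the keratin that suprabasal keratinocytes make as they leave the basal layer, had 525 and 472 in luminal cells and 40254 and 41860 in epidermis, and fell by 6.33 on the log2 scale (SE 0.52, adjusted p = 2.09e-05, limma). The groups did not overlap for any of the 3 genes, as for 78.5% of all genes tested. As these are bulk samples, fewer cells of a type and less RNA per cell cannot be told apart.

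**Figure D1:**
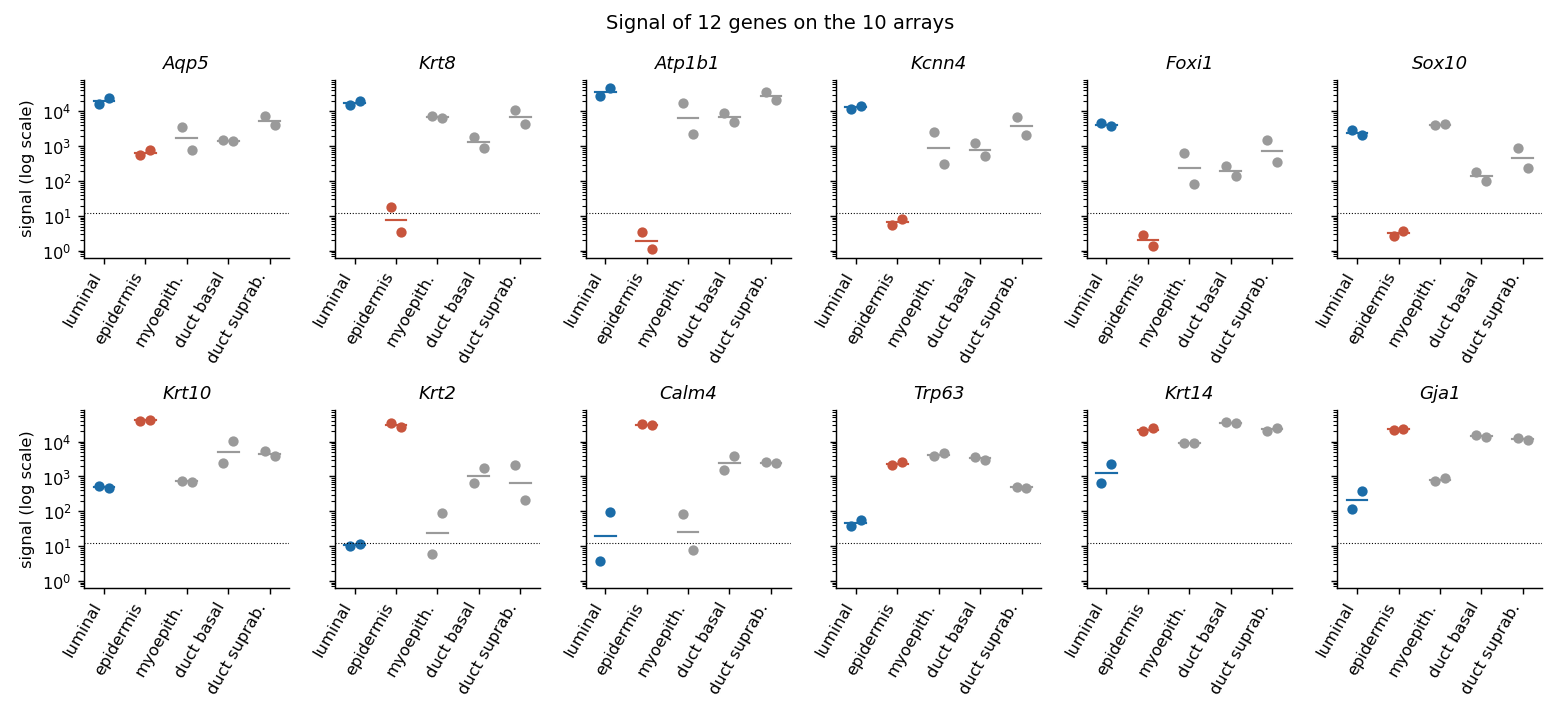
Signal (log axis) of 12 genes on the 10 arrays, 1 panel per gene; each point is an array, each short line the geometric mean of a population's 2 arrays, and the dotted line a signal of 12. In the upper row luminal cells (blue) lie far above epidermis (red), with Aqp5 at 16771 and 24287 against 554 and 782; in the lower row they lie far below, with Krt10 at 525 and 472 against 40254 and 41860.

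The genes with the 3 largest differences in each direction that have a promoter entry, and the markers Aqp5 and Krt10, are shown with the 250 bases before their transcription start. The sequences are from RefSeq (GRCm38.p6), read 5′ to 3′ on the strand of the gene. Capitals mark matches to 5 motifs. The TATA box, TATAAA, was searched on the strand of the gene. Searched on both strands were the letters of AP-1 sites (TGANTCA), those of forkhead factors (TGTTTAC), those of Sp1 (GGGCGG) and those of grainyhead factors (AACCNGTT). The first 4 genes were higher in luminal cells. Atp1b1 lies at chr1:164458356-164458605 on the minus strand, Krt8 at chr15:102004343-102004592 on the minus strand, Fbp1 at chr13:62888283-62888532 on the minus strand and Aqp5 at chr15:99590778-99591027 on the plus strand.
Atp1b1: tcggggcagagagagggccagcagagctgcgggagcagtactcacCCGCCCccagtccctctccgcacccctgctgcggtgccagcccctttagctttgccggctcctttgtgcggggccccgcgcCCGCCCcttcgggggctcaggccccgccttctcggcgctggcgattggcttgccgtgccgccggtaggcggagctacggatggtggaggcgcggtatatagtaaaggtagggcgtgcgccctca
Krt8: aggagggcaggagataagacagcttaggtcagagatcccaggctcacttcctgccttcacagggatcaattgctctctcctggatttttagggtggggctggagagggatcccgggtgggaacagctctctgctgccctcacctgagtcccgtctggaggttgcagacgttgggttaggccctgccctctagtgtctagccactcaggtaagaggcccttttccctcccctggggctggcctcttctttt
Fbp1: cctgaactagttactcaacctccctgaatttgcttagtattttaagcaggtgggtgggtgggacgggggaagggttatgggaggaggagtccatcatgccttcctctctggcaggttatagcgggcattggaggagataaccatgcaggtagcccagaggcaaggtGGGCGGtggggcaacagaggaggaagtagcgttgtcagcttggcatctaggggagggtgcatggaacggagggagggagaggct
Aqp5: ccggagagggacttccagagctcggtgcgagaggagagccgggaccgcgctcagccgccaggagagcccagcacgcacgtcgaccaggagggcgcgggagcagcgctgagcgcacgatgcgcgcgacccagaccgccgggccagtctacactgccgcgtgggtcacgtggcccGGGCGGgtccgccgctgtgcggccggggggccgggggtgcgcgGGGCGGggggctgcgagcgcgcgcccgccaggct
The other 4 were lower in luminal cells. Krt2 lies at chr15:101818170-101818419 on the minus strand, Calm4 at chr13:3837507-3837756 on the plus strand, Sprr1b at chr3:92438780-92439029 on the minus strand and Krt10 at chr11:99389365-99389614 on the minus strand.
Krt2: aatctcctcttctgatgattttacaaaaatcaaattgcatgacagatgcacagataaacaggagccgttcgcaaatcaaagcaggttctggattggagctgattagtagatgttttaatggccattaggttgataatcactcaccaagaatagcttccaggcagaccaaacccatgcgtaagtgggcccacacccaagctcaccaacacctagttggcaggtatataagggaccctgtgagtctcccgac
Calm4: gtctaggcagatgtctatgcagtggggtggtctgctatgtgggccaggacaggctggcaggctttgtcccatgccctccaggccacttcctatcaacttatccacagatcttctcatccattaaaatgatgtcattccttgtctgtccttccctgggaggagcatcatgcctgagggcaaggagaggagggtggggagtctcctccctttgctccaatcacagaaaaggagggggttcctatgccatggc
Sprr1b: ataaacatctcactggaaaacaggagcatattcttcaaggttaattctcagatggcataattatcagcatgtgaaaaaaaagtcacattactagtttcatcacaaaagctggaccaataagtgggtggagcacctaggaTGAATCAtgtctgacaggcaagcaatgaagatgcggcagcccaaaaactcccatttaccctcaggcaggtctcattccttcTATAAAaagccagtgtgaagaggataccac
Krt10: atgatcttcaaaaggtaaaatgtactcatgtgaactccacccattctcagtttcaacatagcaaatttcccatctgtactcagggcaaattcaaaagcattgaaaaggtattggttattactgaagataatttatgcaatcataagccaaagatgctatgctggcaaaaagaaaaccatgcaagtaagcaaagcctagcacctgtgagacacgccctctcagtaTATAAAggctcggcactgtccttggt
G and C made up 70.4% of the window of Atp1b1, 58% of Krt8, 56.4% of Fbp1 and 78.4% of Aqp5. In the genes lower in luminal cells they made up 45.2% of Krt2, 54.4% of Calm4, 41.6% of Sprr1b and 39.6% of Krt10, and the median of all promoters was 52.4%. TATAAA started 30 bases before the start of Sprr1b and 26 bases before that of Krt10. It stood in no other window, neither those of Krt2 and Calm4 nor those of the 4 luminal genes. TGANTCA was matched once, as TGAATCA 111 bases before the start of Sprr1b. GGGCGG was matched on either strand in Atp1b1, Fbp1 and Aqp5, and TGTTTAC and AACCNGTT in none of the 8 windows. The match of these letters is a description and not a binding site.

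The same letters were counted over all genes with large differences. Of the 2022 genes that were higher in luminal cells by at least 2-fold, 1615 had a promoter entry (2246 promoters), and of the 1334 lower ones 1075 had (1329 promoters). TATAAA stood in 4.19% of the promoters of the higher genes, 6.09% of those of the lower genes and 7.59% of all 32851 promoters. TGANTCA stood in 4.32% of the promoters of higher genes, 6.85% of those of lower genes and 6.75% of all. TGTTTAC stood in 1.91%, 2.48% and 3.17% of the same 3 sets, and AACCNGTT in 1.51%, 1.2% and 1.79%. GGGCGG stood in 59.2% of the promoters of higher genes, 57.9% of those of lower genes and 32.7% of all. The 32851 promoters include those of genes that were not tested, so the share of all is not that of the genes tested. No test was made of these shares.

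The populations differed over much of the transcriptome. Of 9310 genes, 2430 (26.1%) were higher and 1786 (19.2%) lower in luminal cells, together 45.3%. Counts of list members are read against these shares. At least 2-fold differences that passed the test numbered 2022 higher (21.7%) and 1334 lower (14.3%). The arrays of the 2 populations did not overlap for 7304 genes (78.5%). The median log2 difference of all genes was 0.16. Quantile normalization moved that median by -0.19, with 2001 genes higher and 2035 lower, and centring each array on its median moved it by -0.32, with 1852 higher and 2468 lower. The share of higher genes among those called was 57.6% with the deposited scaling and 42.9% with median centring, so a small difference of a gene group has no settled direction.

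**Figure D2:**
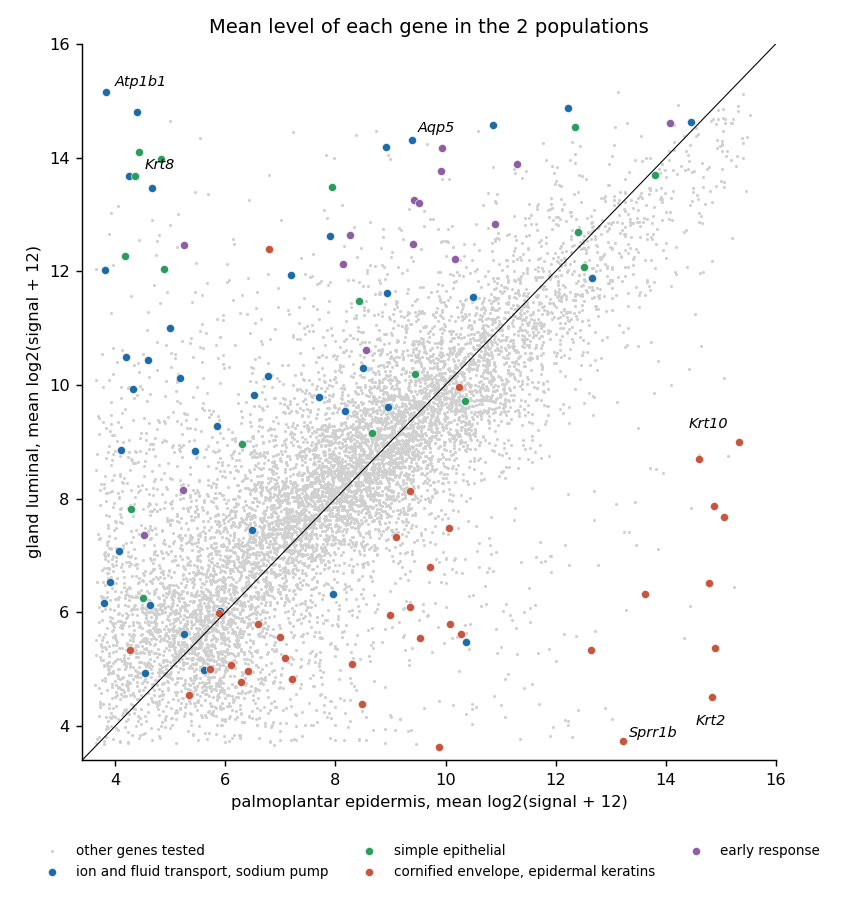
Mean log2(signal + 12) of each gene tested in palmoplantar epidermis (horizontal axis) and in gland luminal cells (vertical axis), with 4 groups of genes coloured and the line of equality drawn. Atp1b1 and Krt8 stand at the upper left, with luminal signals above 15000 and epidermis signals under 20, and Krt2 and Sprr1b at the lower right.

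The 12 largest increases in luminal cells included genes of the sodium pump, of ion transport and of simple epithelial keratins. Atp1b1, the beta subunit of the sodium pump, had 28079 and 47608 in luminal cells and 3.5 and 1.1 in epidermis, the largest difference of all with the brightest probe sets, at 11.33 (SE 0.76, adjusted p = 7.49e-06, limma). Its size depends on the constant added: the log2 difference was 13.54 with 1 and 9.45 with 50. Fxyd2, which modulates the pump, had 22502 and 36212 in luminal cells and 5.5 and 13.1 in epidermis (log2 difference 10.41). The probe sets of Fxyd2 disagreed: a dim one had 3 and 1.7 in luminal cells and 4.4 and 28.9 in epidermis. Fbp1, a gluconeogenic phosphatase, had 19826 and 33146 in luminal cells and 40.2 and 7.5 in epidermis. Atp2a3, a calcium pump of the endoplasmic reticulum, had 17451 and 24839 in luminal cells and 24.4 and 47.6 in epidermis. Ceacam1, a cell adhesion protein, had 13305 and 12710 in luminal cells and 2.2 and 19.2 in epidermis. The others were Kcnn4, Krt19, Krt18, Krt8, Atp6v1b1, the chaperone Cryab and the membrane transporter Mfsd4a, with log2 differences between 8.81 and 9.67. With the mean of a gene's probe sets the log2 difference was 7.80 for Atp1b1, 7.12 for Fxyd2, 7.58 for Atp2a3, 7.21 for Ceacam1, 8.0 for Kcnn4 and 5.13 for Cryab. Bright signals were not particular to luminal cells. Duct suprabasal cells had 35401 and 21897 for Atp1b1, 14005 and 5773 for Atp2a3 and 13782 and 6117 for Ceacam1.

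The 12 largest decreases included several genes of keratinocyte differentiation. Krt2, a keratin of the upper epidermis, had 10.3 and 11.2 in luminal cells and 33655 and 25575 in epidermis, and fell by 10.33 on the log2 scale (SE 1.04, adjusted p = 6.39e-05, limma). Calm4, a calcium-binding protein of the epidermis, had 3.8 and 96.3 in luminal cells and 31707 and 29500 in epidermis. Sprr1b, a small proline-rich protein of the cornified envelope, had 1 and 1.5 in luminal cells and 8954 and 10158 in epidermis. Mt4, a metallothionein of stratified epithelium, had 25.7 and 188 in luminal cells and 38768 and 38660 in epidermis. Crabp2, a retinoic acid carrier, had 4.5 and 3.9 in luminal cells and 4588 and 4998 in epidermis. Igfbp2, which binds insulin-like growth factors, had 21.7 and 53.4 in luminal cells and 18520 and 22877 in epidermis. The remaining 6, Tmem45a, the secreted Slurp1, Elovl4, Klk8, Krt1 and Endou, fell by 8.15 to 8.91 on the log2 scale.

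**Figure D3:**
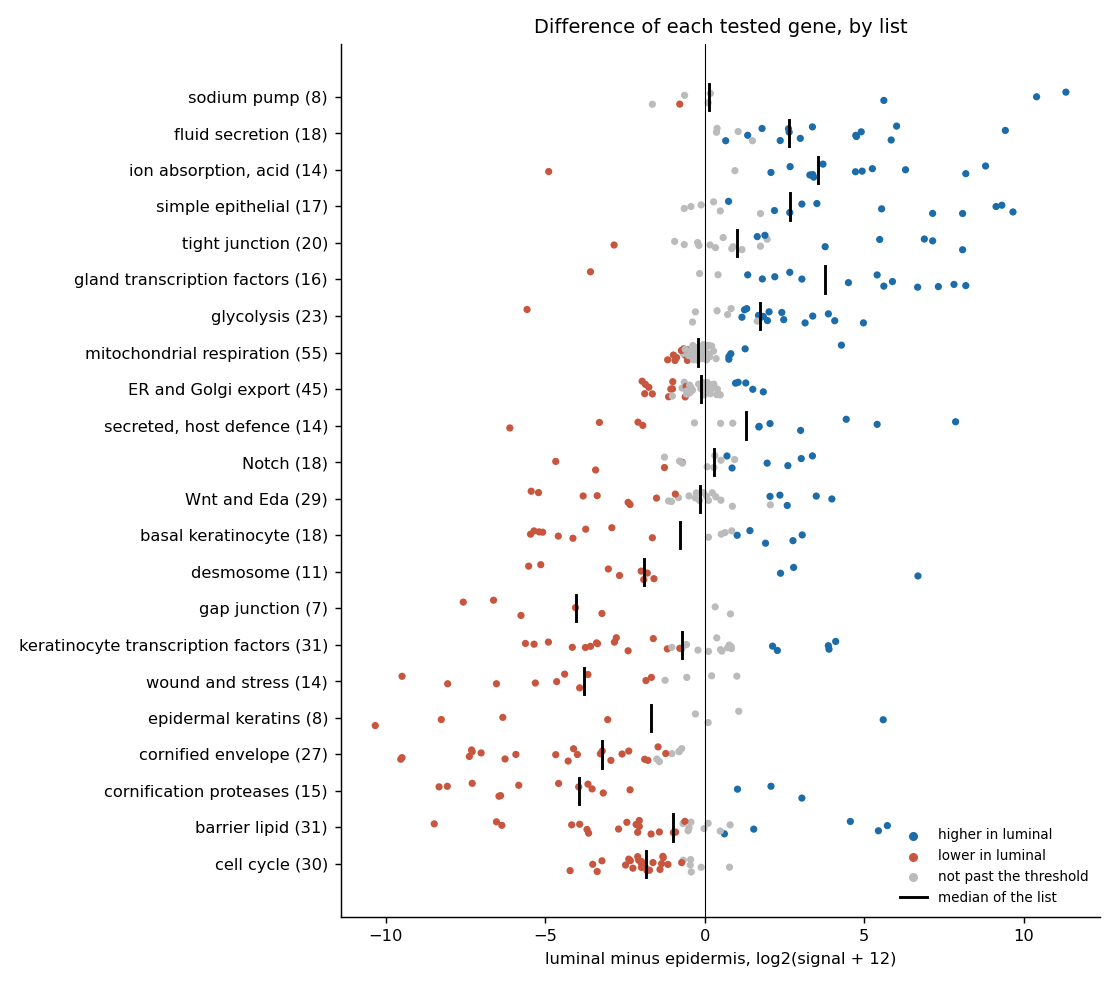
Log2 difference (luminal minus epidermis, on log2(signal + 12)) of every tested member of 22 gene lists, 1 point per gene, coloured by whether it passed the test and in which direction, with the median of each list as a black bar and the number tested in brackets. Fluid secretion (median 2.64) and gland transcription factors (3.78) lie right of 0, and cornified envelope (-3.21) and gap junction (-4.05) left of it.

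Genes of fluid secretion were higher in luminal cells. Of 22 listed genes on the array 18 were tested, and 14 were higher and 0 lower, against 26.1% and 19.2% over all genes. Their median log2 difference was 2.64, against 0.16 over all genes. Kcnn4, a calcium-activated potassium channel, had 11892 and 14278 in luminal cells and 5.5 and 8.4 in epidermis, a difference of 9.43 (SE 0.87, adjusted p = 4.04e-05, limma). Best2, a calcium-activated anion channel, had 1726 and 2435 in luminal cells and 18.2 and 21.4 in epidermis. It was brighter still in duct suprabasal cells, at 5147 and 3076. Ano1, the calcium-activated chloride channel, had 1194 and 1074 in luminal cells and 135 and 70.2 in epidermis. Each of these channels had its lowest luminal array above its highest epidermis array. The populations did not overlap, in either direction, for 78.5% of all genes. Slc12a2, the cotransporter that loads chloride, had 23971 and 37866 in luminal cells and 4473 and 5105 in epidermis, a log2 difference of 2.65. Its other 2 probe sets gave 4.46 and 4.23, and the mean of the 3 gave 3.78. Slc12a2 was about as bright in the gland myoepithelial cells, at 23444 and 38537. Kcnq1 (5.85), the bicarbonate cotransporter Slc4a4 (4.76) and the calcium release channel Itpr2 (4.74) were higher too, with 3.34 for Slc4a4 and 3.36 for Itpr2 over the mean of their probe sets. Chrm3, the muscarinic receptor that triggers sweating, was dim, with 73.6 and 47.9 in luminal cells and 2.7 and 1 in epidermis.

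The sodium pump genes did not move as 1 block. Of 8 tested genes, Atp1b1, Fxyd2 and Fxyd6 were higher and Atp1b3 was lower in luminal cells. Over all genes 26.1% were higher and 19.2% lower. Fxyd6 had 1138 and 816 in luminal cells and 9.7 and 6.2 in epidermis. The number lower was 2 without luminal array 2. Atp1b3, another beta subunit, had 3882 and 3658 in luminal cells and 6432 and 6546 in epidermis, and fell by 0.78 (SE 0.16, adjusted p = 0.00363, limma). Fxyd3 had 20596 and 31417 in luminal cells and 23084 and 21930 in epidermis, and its groups overlapped. Its log2 difference was 0.18 with the deposited scaling, -0.14 with median centring, -0.13 without luminal array 2, and 0.87 and past the threshold with quantile normalization.

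Genes of acid secretion and salt absorption were also higher in 12 of 14 tested members, against 26.1% over all genes, with a median of 3.57. They include the parts of the vacuolar proton pump of the kidney's intercalated cells. Atp6v1b1 had 10260 and 12450 in luminal cells and 4.4 and 26.9 in epidermis, a difference of 8.81 (SE 0.77, adjusted p = 3.06e-05, limma). Slc26a4, the anion exchanger pendrin, had 1469 and 1396 in luminal cells and 1 and 13.7 in epidermis. Car12, a membrane carbonic anhydrase, had 16018 and 21517 in luminal cells and 427 and 522 in epidermis. The sodium channel subunits Scnn1g and Scnn1b were higher by 3.42 and 3.39, and the protease Tmprss2 by 4.94 (3.82 over the mean of its probe sets). Rhbg, an ammonium transporter, went the other way, with 14 and 64.4 in luminal cells and 1467 and 1166 in epidermis, and fell by 4.89.

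Foxi1, the forkhead factor that switches on those proton pump genes in kidney and inner ear, led the list of gland transcription factors. It had 4566 and 3732 in luminal cells and 2.9 and 1.4 in epidermis, a log2 difference of 8.19 (SE 0.86, adjusted p = 7.91e-05, limma). On the 6 other arrays Foxi1 lay between 84.6 and 1510. Of 16 tested factors 13 were higher and 1 lower, against 26.1% and 19.2% over all genes, with a median of 3.78. Tfcp2l1, an epithelial factor of kidney and salivary ducts, had 7355 and 7000 in luminal cells and 4.8 and 48.4 in epidermis. Sox10 had 2848 and 2096 in luminal cells and 2.7 and 3.8 in epidermis, and Sox9 had 4759 and 4283 in luminal cells and 44.1 and 22.7 in epidermis. Sox10 was brighter still in gland myoepithelial cells, at 4039 and 4292. Ehf (5.89), Foxc1 (5.62), Elf5 (5.41) and Foxa1 (4.51) were higher as well. Over the mean of a gene's probe sets the log2 difference was 2.68 for Tfcp2l1, 3.70 for Sox10, 5.25 for Ehf, 4.66 for Foxc1 and 3.02 for Elf5. Gata3 had 0.7 and 8.6 in luminal cells and 187 and 176 in epidermis, and fell by 3.58.

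Keratinocyte transcription factors were split. Of 31 tested, 14 were lower and 5 higher in luminal cells, against 19.2% and 26.1% over all genes, with a median of -0.71. Trp63, the master factor of stratified epithelium, had 38.1 and 55 in luminal cells and 2170 and 2534 in epidermis, and fell by 5.35 (SE 0.22, adjusted p = 1.34e-06, limma). The myoepithelial and duct basal arrays had 3004 to 4738 for Trp63, so the low level was shared by neither. Over the mean of its probe sets the decrease of Trp63 was -2.79. Klf4, which drives barrier formation, had 276 and 242 in luminal cells and 4098 and 5580 in epidermis. Cebpa had 14.2 and 55.4 in luminal cells and 2324 and 1812 in epidermis, and Id3, an inhibitor of helix-loop-helix factors, had 47.8 and 260 in luminal cells and 3691 and 3904 in epidermis. The 5 higher ones included Barx2, with 542 and 712 in luminal cells and 7.2 and 58.5 in epidermis, Satb1 (3.90) and Cebpd (3.88), the last pair at 2.60 and 2.76 over the mean of their probe sets.

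Simple epithelial genes were higher in luminal cells in 11 of 17 tested members and lower in 0, against 26.1% and 19.2% over all genes. Their median was 2.67. Krt18, the partner of Krt8 in filaments, had 15132 and 17022 in luminal cells and 18.3 and 14.9 in epidermis, and Krt19 had 12980 and 13119 in luminal cells and 4.1 and 14.1 in epidermis. Epcam, an adhesion molecule of simple epithelia, had 10452 and 12605 in luminal cells and 188 and 290 in epidermis. Cdh1, the cadherin of all epithelia, had 7650 and 5679 in luminal cells and 5220 and 5630 in epidermis. Its log2 difference of 0.28 did not pass, and was -0.04 with median centring.

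Tight junction genes were higher in 7 of 20 tested members and lower in 1, against 26.1% higher and 19.2% lower over all genes. Among the higher ones were 3 claudins, barrier or pore proteins of tubular epithelia. Cldn3 had 4801 and 5023 in luminal cells and 5.2 and 6.9 in epidermis, Cldn7 had 4537 and 3856 in luminal cells and 15.6 and 19.5 in epidermis, and Cldn8 had 12321 and 14128 in luminal cells and 103 and 95.8 in epidermis. Cgnl1, a junction scaffold, was higher by 5.49, and by 2.12 over the mean of its probe sets. The lower one, Cldn23, had 5.8 and 2.1 in luminal cells and 83.1 and 123 in epidermis.

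Epidermal keratins, ordered along the chromosome in RefSeq (GRCm38.p6), showed opposite differences between near neighbours. In the type II cluster 18 of 26 keratin genes were tested, and 2 were higher and 7 lower in luminal cells. Over all genes 26.1% were higher and 19.2% lower. The 2 higher ones of the type II cluster, Krt8 and the type I gene Krt18, stand next to each other at its end. Between them and Krt1 lie 5 keratin genes. Krt1, the partner of Krt10, had 61 and 104 in luminal cells and 28791 and 27706 in epidermis, and fell by 8.26 (SE 0.35, adjusted p = 1.34e-06, limma). Between them Krt77, Krt4 and Krt79 did not pass and Krt76 and Krt78 were not tested. In the type I cluster 10 of 27 were tested, and 3 were higher and 5 lower. Krt19 stands between Krt15 on one side and Krt9 and Krt14 on the other. Krt14, the basal keratin, had 663 and 2307 in luminal cells and 19873 and 24072 in epidermis, and Krt16, a keratin of sole skin and wounds, had 3.4 and 1.1 in luminal cells and 3086 and 4656 in epidermis. Krt23, in the same cluster, had 5911 and 4846 in luminal cells and 156 and 60.4 in epidermis, a difference of 5.60. Krt12, a keratin of the cornea, had 0.6 and 2.4 in luminal cells and 258 and 286 in epidermis.

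**Figure D4:**
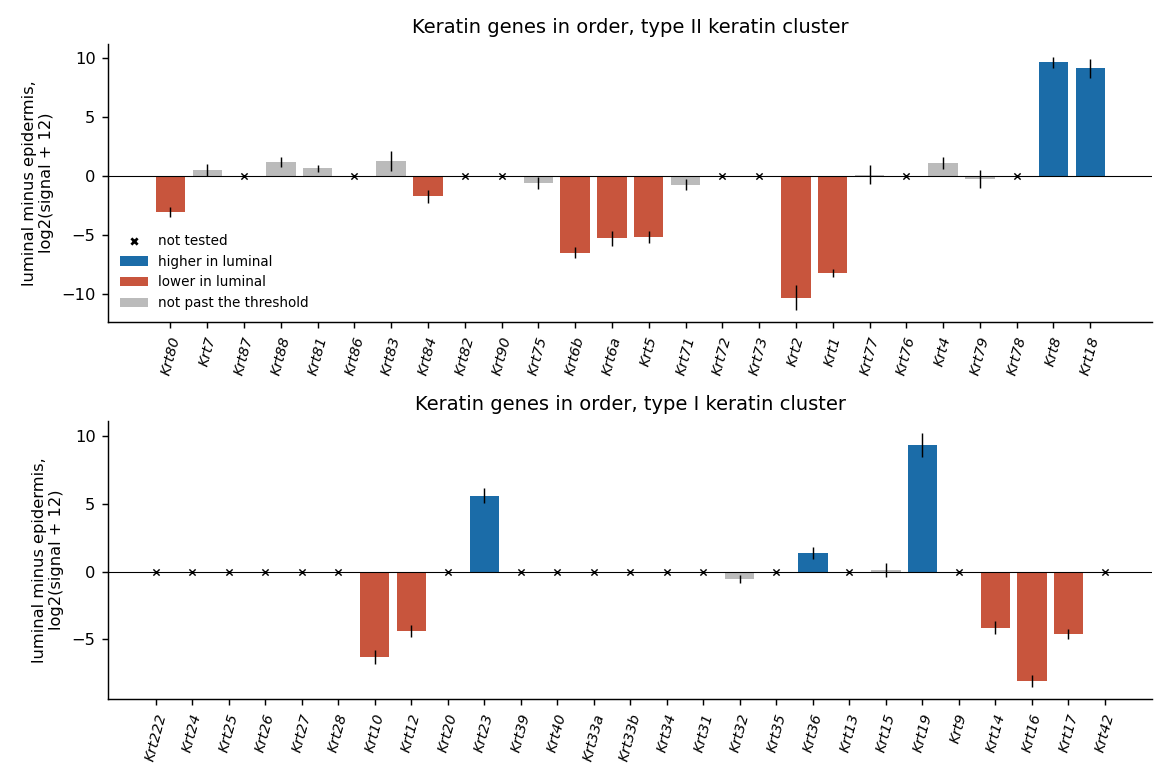
Log2 difference (luminal minus epidermis, on log2(signal + 12)) of keratin genes in their order along the type II cluster (above) and the type I cluster (below); bars are coloured by the test, error bars are the SE and crosses are genes not tested. Krt8 (9.67), Krt18 (9.14) and Krt19 (9.32) were higher; Krt8 and Krt18 stand side by side at the end of the type II cluster, and Krt19 stands between Krt15, which did not pass, and Krt9, which was not tested.

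Cornified envelope genes were lower in luminal cells. Of 55 listed genes 37 were on the array and 27 were tested. In luminal cells 21 were lower and 0 higher, against 19.2% and 26.1% over all genes, with a median of -3.21. After Calm4 and Sprr1b the largest decreases of the list were those of Krtdap (-7.38), S100a14 (-7.31) and Cst6 (-7.29). Dmkn and Krtdap are secreted proteins of differentiating keratinocytes. Dmkn had 177 and 276 in luminal cells and 29450 and 30611 in epidermis, and Krtdap had 83.3 and 429 in luminal cells and 35491 and 32834 in epidermis. S100a14 had 41.5 and 107 in luminal cells and 11399 and 14004 in epidermis. The main envelope protein loricrin (Lor) had 41.7 and 45.2 in luminal cells and 1125 and 1009 in epidermis, and Hrnr, hornerin, had 0.2 and 0.4 in luminal cells and 815 and 1061 in epidermis. The cross-linking transglutaminases Tgm1 and Tgm3 fell by 4.67 and 3.27. Flg, filaggrin, was dim in both, with 10.4 and 48.3 in luminal cells and 154 and 99 in epidermis; its decrease of -1.88 was -1.17 without luminal array 1 and -1.59 without epidermis array 1, both short of the threshold. Members of the Sprr2 and Lce families, like Krt6a and Krt6b, are close copies whose probes may take up each other's transcripts.

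Among proteases and inhibitors of shedding 12 of 15 tested were lower and 3 higher, against 19.2% and 26.1% over all genes. Klk8, a kallikrein, had 17.9 and 148 in luminal cells and 23452 and 20993 in epidermis. Serpinb5 had 449 and 404 in luminal cells and 25187 and 24540 in epidermis, Stfa3, a cysteine protease inhibitor with close copies, had 8.5 and 2.6 in luminal cells and 5303 and 4036 in epidermis, and Serpina12 had 4.6 and 4.2 in luminal cells and 1194 and 1689 in epidermis. Casp14, the caspase of cornification, had 1.7 and 1.2 in luminal cells and 158 and 130 in epidermis. Only the epidermis arrays brought Casp14 past the filter, which fixed its direction. The membrane proteases St14 (3.05) and Prss8 (2.08), which act in many epithelia and activate the sodium channel, were higher in luminal cells.

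Barrier lipid genes were lower in 18 of 31 tested members and higher in 5, against 19.2% and 26.1% over all genes. Elovl4, which makes very long fatty acids, had 0.4 and 3.8 in luminal cells and 5330 and 4686 in epidermis, and fell by 8.48 (SE 0.47, adjusted p = 2.82e-06, limma). Acer1, a ceramidase, had 27.2 and 30.6 in luminal cells and 3376 and 4186 in epidermis, and Cers4, a ceramide synthase, had 23.5 and 3.1 in luminal cells and 1672 and 2123 in epidermis. Alox12b, a lipoxygenase that anchors barrier lipids, fell by 3.69, with 7.6 and 4.2 in luminal cells and 204 and 234 in epidermis. Alox12b and Acsbg1, also of this list, were tested through the epidermis arrays alone, so the filter fixed their direction. Among the 5 higher ones, Plin2, the coat of lipid droplets, had 17990 and 28741 in luminal cells and 403 and 432 in epidermis, and the desaturases Fads1 and Fads2 were higher by 5.45 and 4.57 (3.92 for Fads2 over the mean of its probe sets). Asah1, acid ceramidase, was also higher, with 1491 and 1626 in luminal cells and 554 and 504 in epidermis.

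Of 18 tested basal keratinocyte genes 9 were lower and 5 higher in luminal cells, against 19.2% and 26.1% over all genes. Krt5 had 156 and 334 in luminal cells and 6770 and 11347 in epidermis. Col17a1, a hemidesmosome collagen, had 26.3 and 44.4 in luminal cells and 778 and 1566 in epidermis. Its signals were 6711 and 8839 in myoepithelial cells and 10180 and 15313 in duct basal cells. The share of basal cells in the epidermis samples is not known, so the values are not those of basal cells alone. Among the 5 higher genes of the list were integrin subunits. Itgb4 had 677 and 633 in luminal cells and 89.9 and 81.9 in epidermis. Itgb1 had 647 and 497 in luminal cells and 67.9 and 48 in epidermis, and Itga6 had 2126 and 1988 in luminal cells and 615 and 935 in epidermis. The log2 differences of Itgb4, Itgb1 and Itga6 were 2.77, 3.06 and 1.42, and that of Itgb1 was 1.56 over the mean of its probe sets. The arrays did not overlap for these 3 genes, as for 78.5% of all genes. Lamb3, a laminin chain of the basement membrane, was higher too, with 422 and 543 in luminal cells and 123 and 115 in epidermis. Myoepithelial marker genes moved with them, as given further on, and their part was not tested.

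Desmosome genes differed by member. All 11 tested passed, 8 lower and 3 higher, against 19.2% lower and 26.1% higher over all genes. Pkp2, a plakophilin of simple epithelium and heart, had 1689 and 1521 in luminal cells and 3.8 and 3.4 in epidermis, and Dsg2, a desmoglein of simple epithelium, had 2903 and 2205 in luminal cells and 336 and 376 in epidermis. Pkp1, the plakophilin of stratified epithelium, had 241 and 467 in luminal cells and 16500 and 15381 in epidermis, and Dsc1 had 2.7 and 3.9 in luminal cells and 506 and 551 in epidermis. Dsp, the linker to keratin in every desmosome, fell by 1.59 and Perp by 2.67. Gap junction genes were lower in 5 of 7 tested and higher in 0, with a median of -4.05. Gja1 had 121 and 383 in luminal cells and 21261 and 23776 in epidermis, and Gjb5 had 1.5 and 1.9 in luminal cells and 2660 and 2528 in epidermis. Gjb6 (-5.76), Gjb2 (-4.05) and the channel Panx1 (-3.22) were the other 3.

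Wound and stress genes were lower in 10 of 14 tested members and higher in 0, against 19.2% and 26.1% over all genes. Krt6a had 152 and 811 in luminal cells and 13600 and 15528 in epidermis, Krt6b had 23.7 and 56.1 in luminal cells and 3863 and 5315 in epidermis, and Krt17 had 28.4 and 64.3 in luminal cells and 1096 and 1728 in epidermis. Besides wounds, sole skin makes Krt6 and Krt16 in health. S100a8, an alarmin, had 16.8 and 44.9 in luminal cells and 589 and 613 in epidermis. Luminal array 2 was the brighter luminal array for each of these genes except Krt16.

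Cell cycle genes were lower in 24 of 30 tested members and higher in 0, against 19.2% and 26.1% over all genes, with a median of -1.84. Mki67, the proliferation marker, had 5 and 31.3 in luminal cells and 306 and 290 in epidermis, and fell by 3.51 (SE 0.48, adjusted p = 0.00035, limma). Birc5, survivin, had 5 and 9.6 in luminal cells and 307 and 385 in epidermis, and Rrm2, a nucleotide reductase subunit, had 29.6 and 35.9 in luminal cells and 510 and 393 in epidermis. Pcna, the replication clamp, fell by 1.15. Epidermis was not the highest population for Mki67: duct basal cells had 2048 and 1615.

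Glycolysis genes were higher in luminal cells in 16 of 23 tested members and lower in 1, against 26.1% and 19.2% over all genes. Their median was 1.75, and fewer were higher without epidermis array 1. Hk1, hexokinase, had 15520 and 16649 in luminal cells and 511 and 483 in epidermis, a difference of 4.98 (SE 0.66, adjusted p = 0.000304, limma). Pfkp, phosphofructokinase, had 19270 and 26822 in luminal cells and 1536 and 1538 in epidermis, Pkm, pyruvate kinase, had 12160 and 15251 in luminal cells and 2454 and 2414 in epidermis, and Aldoa, aldolase, had 26296 and 50859 in luminal cells and 8891 and 9152 in epidermis. Ldhb, lactate dehydrogenase B, was higher by 4.08 (3.37 over the mean of its probe sets). Slc16a1, a lactate and pyruvate transporter, had 24.4 and 64.5 in luminal cells and 2790 and 2221 in epidermis, and fell by 5.57.

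Mitochondrial respiration genes had no settled direction. Of 55 tested, 5 were higher and 9 lower, against 26.1% and 19.2% over all genes, with a median of -0.22. The counts were 10 higher and 4 lower with quantile normalization and 2 higher and 21 lower with median centring. The number higher was 3 without luminal array 2 and without either epidermis array, and the number lower was 3 without luminal array 1 and without either epidermis array. Ppargc1a, the coactivator of mitochondrial growth, had 510 and 465 in luminal cells and 6.8 and 22.7 in epidermis, a difference of 4.29. Uqcrc1, a subunit of complex III, fell by 1.16. Genes of protein export through the endoplasmic reticulum and Golgi were 5 higher and 11 lower of 45 tested, with a median of -0.12. The number higher was 2 without luminal array 1 or without epidermis array 2. Dnajb9, a chaperone cofactor, had 2000 and 1390 in luminal cells and 541 and 388 in epidermis, and Ssr4, a translocon subunit, had 3068 and 3778 in luminal cells and 13516 and 13008 in epidermis. Calr, calreticulin, fell by 1.13.

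Secreted and host defence genes differed in kind. Of 14 tested, 7 were higher and 4 lower, against 26.1% and 19.2% over all genes. The number higher was 3 without luminal array 2 or epidermis array 2 and 4 without epidermis array 1, and the number lower was 2 without luminal array 1 or either epidermis array. Wfdc2, a secreted protease inhibitor of glands, had 6103 and 11160 in luminal cells and 33.1 and 15.5 in epidermis, a difference of 7.87 (SE 0.49, adjusted p = 5.45e-06, limma). Apod, a lipocalin, had 265 and 1316 in luminal cells and 0.7 and 4.1 in epidermis, and Lyz1, a lysozyme with a close copy, had 225 and 857 in luminal cells and 8.3 and 9.4 in epidermis. Luminal array 2 was the brighter for both, as it was for the fibroblast genes. Defb1, a beta defensin, had 12.4 and 5.7 in luminal cells and 1506 and 1350 in epidermis, and Cst3, cystatin C, had 1884 and 3094 in luminal cells and 23928 and 23756 in epidermis.

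Signalling genes went both ways, and their counts stand against 26.1% higher and 19.2% lower over all genes. Of 18 Notch genes 6 were higher and 4 lower, and 3 were higher without luminal array 1 or either epidermis array. Jag1, a ligand, had 17.2 and 16.1 in luminal cells and 289 and 299 in epidermis, with a dimmer second probe set of the opposite sign. The receptor Notch1 had 605 and 430 in luminal cells and 1298 and 1181 in epidermis; its decrease of -1.26 was -0.84, short of the threshold, over the mean of its probe sets. Nrarp, a feedback target, had 91.9 and 141 in luminal cells and 3500 and 2938 in epidermis, while Hey2, another target, had 184 and 106 in luminal cells and 3.8 and 1.5 in epidermis. Of 29 Wnt and Eda genes 5 were higher and 8 lower. Wnt4, a ligand, had 70.1 and 34.6 in luminal cells and 2302 and 2267 in epidermis, and Wnt10a had 19.9 and 3.1 in luminal cells and 300.5 and 290 in epidermis. Dkkl1 fell by 5.44, and the receptor Fzd7 had 1843 and 1729 in luminal cells and 120 and 84.5 in epidermis.

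Marker lists of other cell types are given beside the 45.3% of all genes that passed. Of 12 tested myoepithelial markers 7 were higher and 1 lower in luminal cells, with a summed signal of 8130 and 8550 in luminal cells and 5460 and 6880 in epidermis. Acta2, smooth muscle actin, had 1567 and 2143 in luminal cells and 169 and 254 in epidermis, while the myoepithelial arrays had 36397 and 58196. Of 10 fibroblast markers 5 were higher and 0 lower, with sums of 2320 and 6630 in luminal cells and 1230 and 1530 in epidermis. Col3a1, a fibrillar collagen, had 895 and 2455 in luminal cells and 25 and 19.1 in epidermis. The endothelial list passed in 0 of 9 (sums 262 and 591 in luminal cells, 127 and 99.9 in epidermis), and the immune list in 2 of 9 (809 and 1360 in luminal cells, 368 and 344 in epidermis). Langerhans cell markers were higher in 1 of 6, pericyte markers in 1 of 4 and Merkel cell and adipocyte markers in 1 of 2 each, with 0 lower. The Langerhans marker that was higher was Epcam, given above as a simple epithelial gene. Of 3 skeletal muscle markers 1 was higher and 1 lower, and the T cell and red cell lists had 1 tested gene each, which did not pass.

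Of 6 melanocyte markers 5 were higher, with sums of 6190 and 5390 in luminal cells and 178 and 183 in epidermis, and Sox10 and Kit, which secretory gland cells are also known to make, had the largest differences of the list (7.33 and 6.69, and 3.70 and 4.67 over the mean of their probe sets). Tyrp1, a pigment enzyme that defines melanocytes, had 113 and 206 in luminal cells and 0.9 and 0.7 in epidermis. Mitf, the master factor of melanocytes, had 144.8 and 161.3 in luminal cells and 20 and 34.2 in epidermis, a log2 difference of 2.10 that was 1.24 with the mean of its probe sets. Of 5 Schwann cell markers 4 were higher, with sums of 18900 and 19200 in luminal cells and 275 and 268 in epidermis, led by S100b at 10928 and 10711 in luminal cells and 26 and 37.6 in epidermis. Luminal array 2 was above array 1 in the sums of the fibroblast, endothelial and immune lists. The part of any of these cells in the results was not tested.

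**Figure D5:**
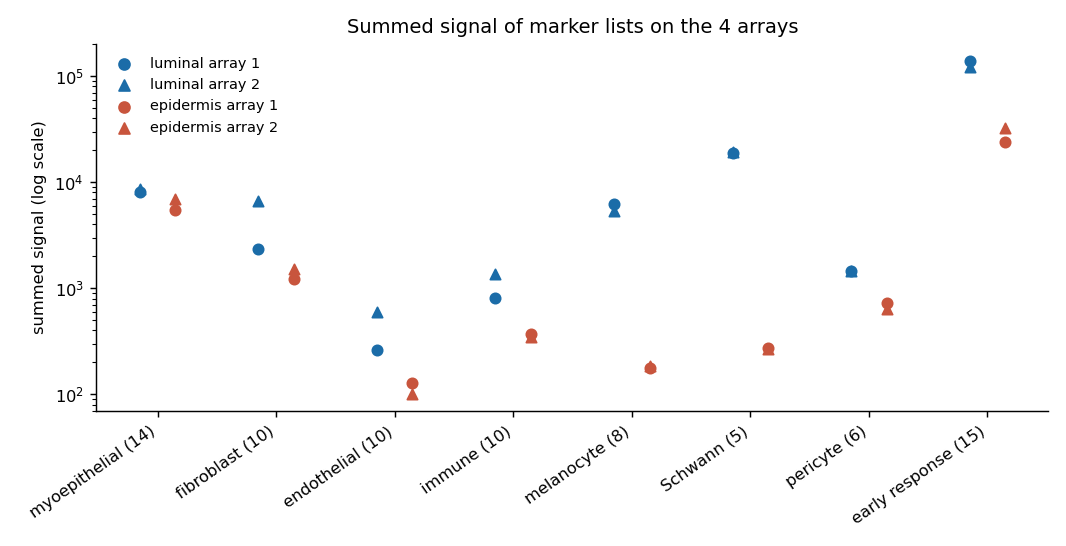
Summed signal (log axis) of 8 marker lists on the luminal (blue) and epidermis (red) arrays, array 1 as circles and array 2 as triangles, with the number of genes on the array in brackets. The early response genes sum to 140000 and 123000 in luminal cells and 23800 and 32700 in epidermis, and the fibroblast list to 2320 and 6630 in luminal cells.

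Early response genes, which tissue dissociation is known to induce, were higher in luminal cells in 14 of 15 tested and lower in 0. Over all genes 26.1% were higher and 19.2% lower. The median of the early response genes was 3.06. Fos had 19409 and 17509 in luminal cells and 785 and 1178 in epidermis, a difference of 4.24 (SE 0.27, adjusted p = 6.04e-06, limma). The other gland and duct arrays had 9862 to 28158 for Fos, so epidermis stood apart from the 4 other populations. Nr4a1 had 7610 and 4186 in luminal cells and 15.9 and 40 in epidermis, and Egr1 had 13958 and 6888 in luminal cells and 529 and 865 in epidermis. The labels do not state how each population was dissociated, and the part of dissociation in the other differences was not tested.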

How the data were processed

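Total RNA of sorted cells was measured on 10 Affymetrix mouse arrays, 2 per population, each with 22690 probe sets. The deposited intensities are MAS5 signals, per the submitters' processing notes, with no version named. Their scale is linear, and leaving off the top and bottom 2% each array averaged 500. Detection calls were not used here. Of the probe sets, 64 controls were left out, 20380 had 1 gene symbol in the platform annotation, 691 had several and 1555 were not listed. Each of 12393 genes was represented by the probe set with the highest mean over 10 arrays. Signals were converted to log2 after adding 12, about the 20th percentile of all values (12.2), and 9310 genes above the array's 40th percentile on at least 2 arrays were tested.

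Genes were tested with limma 3.58.1 (R 4.3.3), with variances that follow the mean, in 1 model of 10 arrays and 5 populations (5 residual degrees of freedom). The fit was also run on simulated arrays with changes in far fewer genes than passed here. That run cannot show how the fit behaves when this many genes differ. The labels state no pairing, so the replicate numbers were not used as pairs. With 2 arrays a population, the correlations that follow cannot decide whether arrays were paired. Arrays of luminal cells and epidermis with the same replicate number deviated together with a correlation of 0.0707. The other pairs with epidermis lay at 0.0253 to 0.0878. Among the 4 gland and duct populations the correlations were 0.12 to 0.357. The members, the 36 gene lists and the alternatives were chosen with earlier results of these data known, and no list was tested as a set. Genes are named if they passed, differed by at least 2-fold, did not overlap between the populations and lay above the median signal of genes tested in the higher one: the 12 largest per direction and up to 5 per list and direction, with Aqp5, Krt8 and Krt10 always given. Other genes are named to describe their list. The symbol families of the closing section, Krt12 and the choice of promoters came after the values were seen. Alternatives were pseudocounts of 1 and 50, 2 normalizations, 3 filters, 2 smaller fits, a replicate block, the mean of a gene's probe sets, no variance trend and leaving out each array.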

Additional observations from a re-analysis of the deposited data

How the results depend on the processing

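The counts over all genes stayed within 1.5 times under all 16 alternatives: 1727 to 2951 genes were higher and 1231 to 2468 lower in luminal cells, and leaving out 1 array gave 1727 to 1894 higher and 1231 to 1357 lower. The replicate numbers were not taken as pairs, as the labels state no pairing. The correlation of deviations was 0.0707 between luminal and epidermis arrays. With a replicate block 2649 genes were higher and 1958 lower. Of 2538 pairs of a named gene and an alternative, 2531 kept direction and side of the threshold; Fxyd3 turned to -0.14 with median centring and ranged from -0.13 to 0.48 with 1 array left out, and Cdh1 turned to -0.04 with median centring. List counts that moved by over 1.5 times were as follows, and the cause was not tested. Mitochondrial genes were 10 higher and 4 lower with quantile normalization and 2 higher and 21 lower with median centring, and 17 were lower with the replicate block and 5 without a variance trend. Tight junction genes lower were 2 with a pseudocount of 50 and with median centring, 0 with a filter at the 60th percentile and 3 in the fit of 4 arrays, which also had 12 higher. Median centring left 3 export and 4 secreted genes higher. The fit of 4 arrays called 18 export genes lower, 8 keratinocyte factors higher, 2 simple epithelial genes lower, and 1 stress and 1 cell cycle gene higher. Without the duct suprabasal arrays 2 sodium pump genes were lower. With 1 array left out, the ranges were 1 to 2 sodium pump genes lower, 2 to 5 export genes higher, 3 to 5 secreted genes higher and 2 to 4 lower, 3 to 5 mitochondrial genes higher and 3 to 11 lower, 3 to 5 Notch genes higher and 10 to 13 glycolysis genes higher. With no detection calls, dim signals carry no reliable order, and 2 arrays a population limit every estimate.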

Other observations

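Families picked by symbol after the values were seen showed protein synthesis and turnover genes lower in luminal cells. Of 47 tested cytosolic ribosomal protein genes 30 were lower and 0 higher (median log2 difference -0.99), against 19.2% lower and 26.1% higher over all genes, and the counts were 26 lower and 1 higher with quantile normalization and 35 lower and 0 higher with median centring. Rpl14 had 212 and 286 in luminal cells and 1448 and 1303 in epidermis, and Rps25 had 200 and 280 in luminal cells and 1448 and 1179 in epidermis. Many ribosomal protein genes have near-identical pseudogenes that probes may also take up. Of 74 mitochondrial ribosomal protein genes 43 were lower and 6 higher (median -0.72). Of 41 genes with symbols of translation initiation factors 24 were lower and 4 higher (median -0.86). Of 47 genes with symbols of proteasome subunits 30 were lower and 0 higher (median -0.91). Symbols can take in other genes, and the kinase gene Eif2ak3 was counted with the initiation factors. With quantile normalization 44, 23 and 29 genes of these 3 families were lower, in the order given, and with median centring 50, 27 and 36. Eif6, a factor that keeps ribosomal subunits apart, had 1375 and 1454 in luminal cells and 7128 and 7310 in epidermis. Psma4, a proteasome core subunit, had 2415 and 2608 in luminal cells and 8263 and 7248 in epidermis. The early response genes and the array medians moved with the same contrast, and their part was not tested.

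Solute carriers leaned the other way, with 72 of 181 tested higher and 19 lower in luminal cells. The counts were 68 and 26 with quantile normalization and 62 and 27 with median centring. With the deposited scaling, 26.1% of all genes were higher and 19.2% lower. Slc20a1, a phosphate transporter, had 13968 and 18918 in luminal cells and 204 and 277 in epidermis. Slc2a4, the insulin-regulated glucose transporter, had 3744 and 3455 in luminal cells and 44.2 and 63.2 in epidermis. Tetraspanins, membrane organising proteins, were 9 higher and 2 lower of 15, led by Tspan13 with 4753 and 5220 in luminal cells and 9.3 and 21.9 in epidermis. Serpin B genes were 7 lower and 2 higher of 11, with 1 higher under median centring, and Serpinb7 had 10.7 and 16.4 in luminal cells and 2552 and 2925 in epidermis. Aquaporins split: beside Aqp5, which was higher, Aqp3, the aquaporin of basal keratinocytes, had 78.1 and 199 in luminal cells and 12682 and 17656 in epidermis. Carbonic anhydrases were 5 higher and 1 lower of 11, and 3 higher with quantile normalization or median centring. The secreted Car6 had 9058 and 12314 in luminal cells and 33.5 and 46.3 in epidermis, and Car13 had 55.2 and 62.2 in luminal cells and 2091 and 2294 in epidermis.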
